A study of Drosophila melanogaster with 5 samples.

Results

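The heat shock proteins and chaperones of the fruit fly Drosophila melanogaster are described here in females without insulin-producing cells (IPCs), the brain neurosecretory cells that release insulin-like peptides. Genes were taken by name alone, as those whose probe carries a single symbol beginning with Hsp, Hsc, CCT or DnaJ, together with a short set of named chaperones and the heat shock factor Hsf. A value was present for 32 such genes, from 41 probes, out of 10124 genes measured in all. One further probe, for Hsc70-4, had no value on any array. The reference gene table holds 45 genes that fit the naming rule, and the other 13 were not analysed here. Among those 13 are Hsp83, the cytosolic Hsp90, the 6 heat-inducible Hsp70 genes, the small heat shock genes Hsp22, Hsp23, Hsp67Ba and Hsp67Bc, and the calreticulin gene Calr.

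Chaperones bind unfolded or nascent proteins and keep them from aggregating until they fold. Hsp70 proteins do so in cycles of ATP hydrolysis that J domain proteins start and Hsp110 exchange factors reset, the CCT ring encloses actin and tubulin, and small heat shock proteins hold denatured proteins for later refolding. In flies the stress-inducible members are driven by Hsf, and small heat shock genes are also known as targets of the insulin-regulated factor FOXO and as genes linked to lifespan, and the series lists ageing and longevity among its keywords.

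The RNA came from whole females, 14 days old, given yeast paste as their sole food for 48 h after a period with males. Deficient females were the offspring of InsP3-Gal4 x UAS-RPR/HID, in which the driver expresses the cell death genes reaper and hid. Control females were the offspring of InsP3-Gal4 x UAS-LacZ. Both thus carried the driver and UAS-linked genes, reaper and hid in deficient females and LacZ in controls. The sources used here do not give the driver's expression outside the IPCs, the time of cell loss or the number of flies per RNA. Each of 5 two-colour arrays, made from 2 biological repeats, received both RNAs, with the deficient RNA in Cy5 on 2 arrays and in Cy3 on 3.

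The deposited table holds a single signed fold change per probe, the same on every array where the spot is filled, and it was turned into a signed log2 value. The arrays therefore give no spread between flies and no test was possible. The numerator is not stated in the sources used here. A positive value is read here as higher in deficient flies, because the design text puts them before the controls and because tobi, an alpha-glucosidase known to depend on brain insulin, stood at -4.10. This reading is likely and not certain, and with the sign turned every direction below is the opposite. An error is approached in 2 ways. The first is the number of filled spots of a probe, at most 10 (2 copies on 5 arrays). The second is the standard deviation (SD) of log2 values among probes that share a gene, 0.18 over 647 genes with 1437 probes on all 5 arrays, which covers probes and not flies. Over all probes, including those not on all 5 arrays, this SD was 0.56 (1167 genes, 2649 probes). The SD between probes named below is the 0.18, which is a narrow measure for genes with few filled spots. Filled features per array ranged from 20711 to 28090. Yolk and chorion genes (Yp1, Yp2, Yp3, Cp15 and Cp18 among them) were filled in all 10 spots. RNA of whole animals cannot tell fewer cells of a type from less RNA per cell.

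Most chaperone genes stood close to 0. Of the 32 genes, 16 were above 0 and 16 below, and their median log2 value was -0.00056 against -0.0077 for all 10124 genes. Within the SD between probes lay 21 of the 32 chaperone genes, 65.6%, against 67.8% of all genes. Beyond 1.5-fold in either direction lay 4 chaperone genes, where 5.35% of all genes did. Of these, 2 chaperone genes were positive, where 2.24% of all genes were, and 2 were negative, where 3.11% of all genes were. The positive genes were Pdi and Hsc70-3, both of the endoplasmic reticulum, and the negative ones Hsp26 and Hsp27, both small heat shock proteins. Among the 22 chaperone genes whose every probe was filled on all 5 arrays, values ran from -0.38 (Hsc70-4) to 1.04 (Pdi), with a median of -0.03. Of these 22, only Pdi lay beyond 1.5-fold, while 1.96% of all such genes were positive and 0.704% negative. With probes of at least 5 spots, 30 chaperone genes had a value and 1, again Pdi, was positive and 0 negative, while 2.06% of all genes so measured were positive and 1.27% negative.

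**Figure D1:**
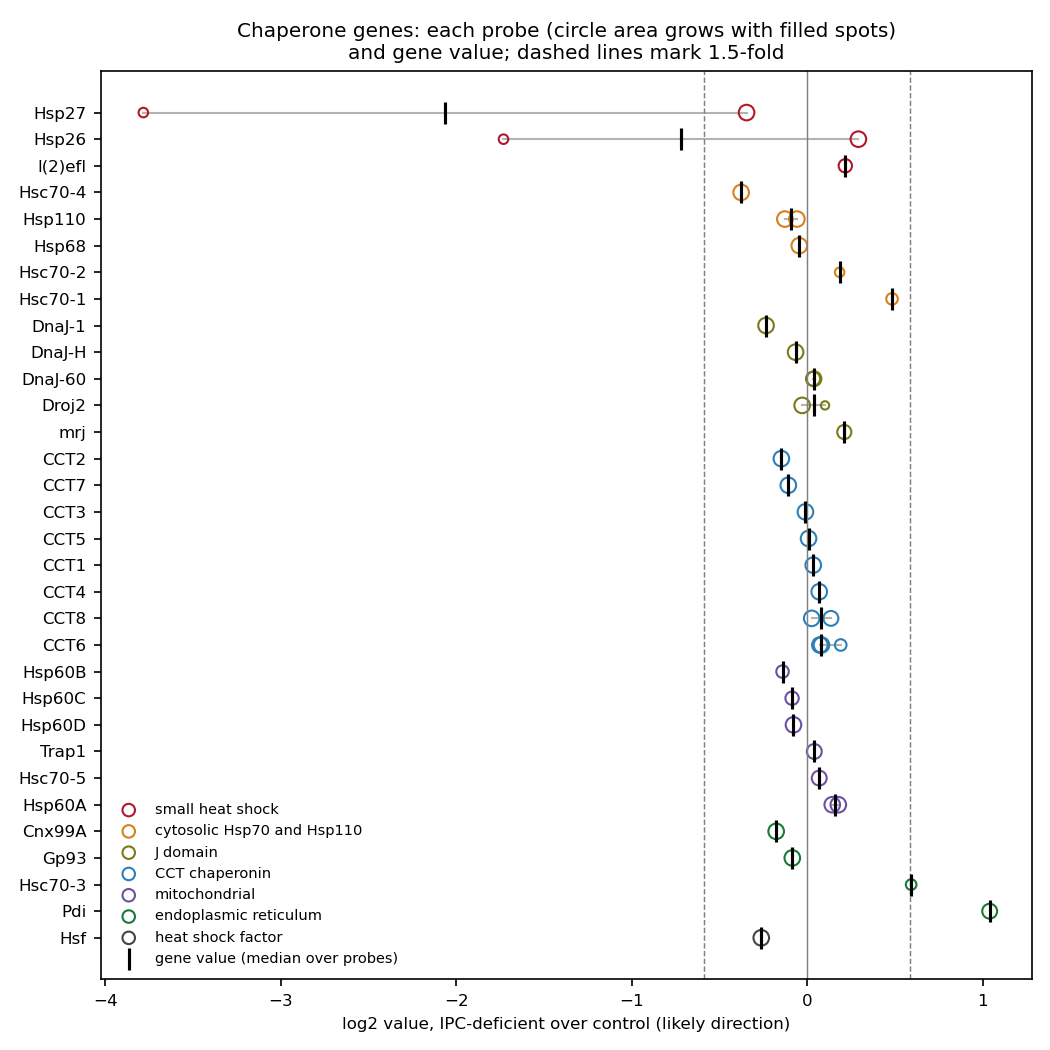
Each row is a chaperone gene, grouped by class, and the horizontal axis is the log2 value, positive for higher in IPC-deficient flies in the likely direction. Circles are probes, with area growing with filled spots, the black bar is the gene value and dashed lines mark 1.5-fold. Pdi at 1.04 stands alone on the right among well-filled probes, and the probes of Hsp26 and Hsp27 lie far apart.

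The small heat shock genes had the widest values and also the probes that differed most. These proteins form large oligomers that hold denatured clients, and Hsp26 and Hsp27 are developmentally expressed in the ovary as well as induced by heat. Hsp27 stood at -2.06, a 4.18-fold difference, but this is the median of a probe filled in all 10 spots at -0.34 and a probe filled in 3 spots at -3.78. The 3 spots of the second probe were 1 each on arrays 2, 3 and 5. Its value was the lowest of all 605 probes with exactly 3 filled spots, whose central 95% ran from -2.02 to 0.61. Hsp26 stood at -0.72 in the same way, joining a fully filled probe at 0.29 with a 3-spot probe at -1.73 that was filled on arrays 1 and 3. The 2 probes thus differed by 3.44 log2 units for Hsp27 and by 2.02 for Hsp26, and for Hsp26 they lie on opposite sides of 0. By the fully filled probes alone, neither gene reached 1.5-fold, and the genes stood on opposite sides, Hsp26 positive and Hsp27 negative. The fully filled Hsp27 probe, at -0.345, still lay just below the central 95% of probes with 10 spots, which began at -0.338. The third measured gene of the class as taken by name, l(2)efl, stood at 0.22 from 7 spots on all 5 arrays. Its product is an alpha-crystallin type small heat shock protein.

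Filled spots went with the size of a value in the table as a whole. Among probes with exactly 3 spots, 16.0% of those of all genes lay beyond 1.5-fold in either direction, against 2.54% of those with all 10 spots. The chaperone genes had 24 probes with 10 spots, ranging from -0.38 to 0.29 with none beyond 1.5-fold, and a median absolute value of 0.08 against 0.10 for the 4559 such probes of all genes. They had 12 probes with 5 to 9 spots, of which 1 (Pdi) lay beyond 1.5-fold, as did 4.06% of such probes of all genes. They had 5 with 1 to 4 spots, of which 3 did, as did 18.4% of such probes of all genes. The part of low filling in the values of Hsp26, Hsp27 and Hsc70-3 was not tested beyond these counts.

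**Figure D2:**
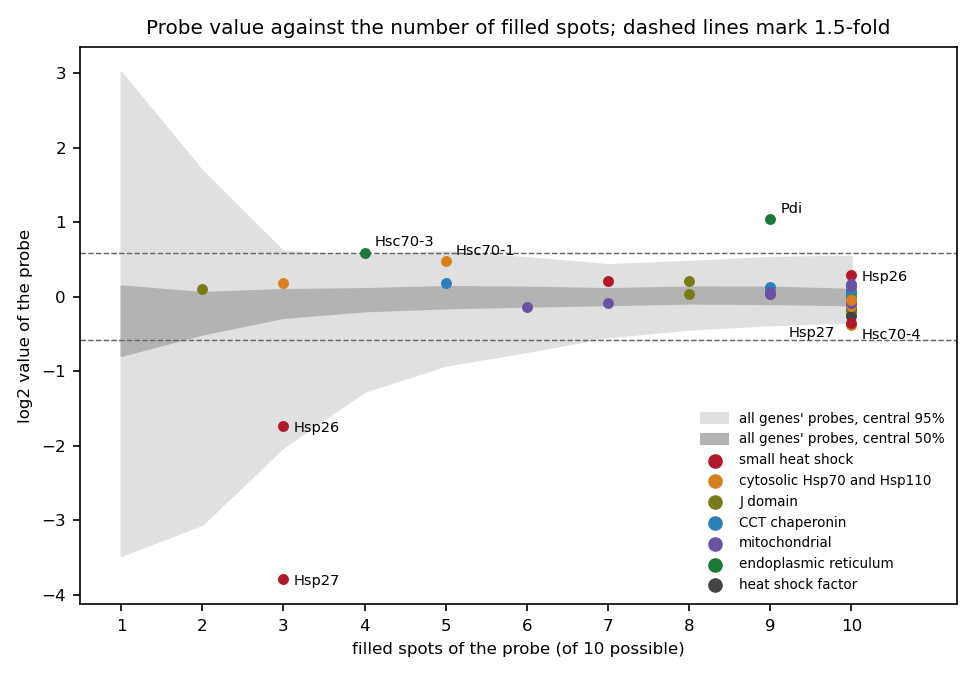
The vertical axis is the log2 value of a probe and the horizontal axis the number of its filled spots. Coloured points are probes of chaperone genes, grey bands hold the central 95% and 50% of probes of all genes and dashed lines mark 1.5-fold. Pdi lies above the 95% band at 9 spots and the second Hsp27 probe lies below it at 3 spots. The probes with 10 spots stay between -0.38 and 0.29, with those of Hsc70-4 and Hsp27 just below the band.

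In the remaining genes with several probes, the probes lay close together. These were CCT6, CCT8, DnaJ-60, Droj2, Hsp110 and Hsp60A, whose probes differed by 0.0051 (DnaJ-60) to 0.13 (Droj2), all under the SD between probes. Hsp60A, with 10 spots at each of its probes, stood at 0.14 and 0.18. Droj2 had a probe with 2 spots, both on array 3, at 0.10 beside a probe with 10 spots at -0.03. Over the 8 chaperone genes with probes of different value, 2 had a range over 1, as did 10.2% of the 1167 such genes in the table.

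Pdi encodes protein disulfide isomerase, which forms and rearranges disulfide bonds of secreted proteins in the endoplasmic reticulum. It stood at 1.04, a 2.06-fold difference, from 9 of 10 spots. Both copies were filled on arrays 1, 2, 3 and 5, and 1 copy on array 4, so spots were filled in both dye orientations. Because the value is combined, it does not show whether the orientations gave the same ratio. Of the 6531 genes with every probe on all 5 arrays, 99.7% had a lower value, and the central 95% of probes with 9 spots ran from -0.37 to 0.53. A single probe measured Pdi, so no second probe bears on this value.

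The relatives of Pdi read here, and the oxidase Ero1L, did not stand with Pdi. The isomerase relatives ERp60, CaBP1 and prtp stood at -0.15, 0.05 and 0.09, and wbl (windbeutel, a relative needed for dorsoventral patterning of the egg) at -0.29. Ero1L, the oxidase that recharges protein disulfide isomerase, stood at -0.26 from 10 spots. None of these 5 genes reached 1.5-fold, and 3 of them lay below 0.

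Hsc70-3, the fly BiP, is the Hsp70 of the endoplasmic reticulum and a standard marker of the unfolded protein response. It stood at 0.59, a 1.51-fold difference that lies just past 1.5-fold, from 4 spots. A single copy was filled on arrays 1 to 4 and none on array 5, and the second copy was empty throughout. Among the 785 probes of all genes with exactly 4 spots, the central 95% ran from -1.27 to 0.56.

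The lectin chaperone calnexin (Cnx99A), which holds newly glycosylated proteins, stood at -0.18 and Gp93, the Hsp90 of the endoplasmic reticulum, at -0.08, each from 10 spots. The median of the 4 genes of this compartment was 0.25, a value that lies between 2 high and 2 low genes. With probes of at least 5 spots, Hsc70-3 drops out and the median is -0.08.

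Companions of these genes gave no common shift. Of 18 other measured genes of endoplasmic reticulum folding and the unfolded protein response, 0 were positive and 1 negative at 1.5-fold. The negative gene was Der-1, a derlin of protein export for degradation, at -0.95 from 4 spots on arrays 1 and 3. The list median was -0.08, with 7 genes above 0 and 11 below. The sensors PEK, Atf6 and Ire1 stood at -0.24, -0.20 and -0.06. Sil1 and Grp170, the exchange factors of BiP, stood at -0.05 and 0.03, and the ubiquitin ligase gene sip3 (Hrd1) at 0.28 while its partner Hrd3 stood at -0.21.

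Probes near those of the 4 genes on the array were also read. The 22 measured probes within 2 rows and columns of the Pdi probe had a median of 0.04, with 14 above 0, and 1 of them was beyond 1.5-fold, the directly adjacent probe of ex at 1.88 from 2 spots. The 11 such neighbours of Hsc70-3 had a median of 0.05, and 0 of them reached 1.5-fold. The 3-spot probe of Hsp26 had 23 neighbours with a median of -0.08, of which 3 were negative and 1 positive at 1.5-fold. The 3-spot probe of Hsp27 had 24, with a median of 0.0058 and 1 beyond 1.5-fold on each side. Some unnamed neighbours carried 1 identical value, 0.09 near Hsc70-3 and -0.17 near both Pdi and the 3-spot Hsp26 probe. They are therefore not separate readings. The part of array position in the values was not tested.

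**Figure D3:**
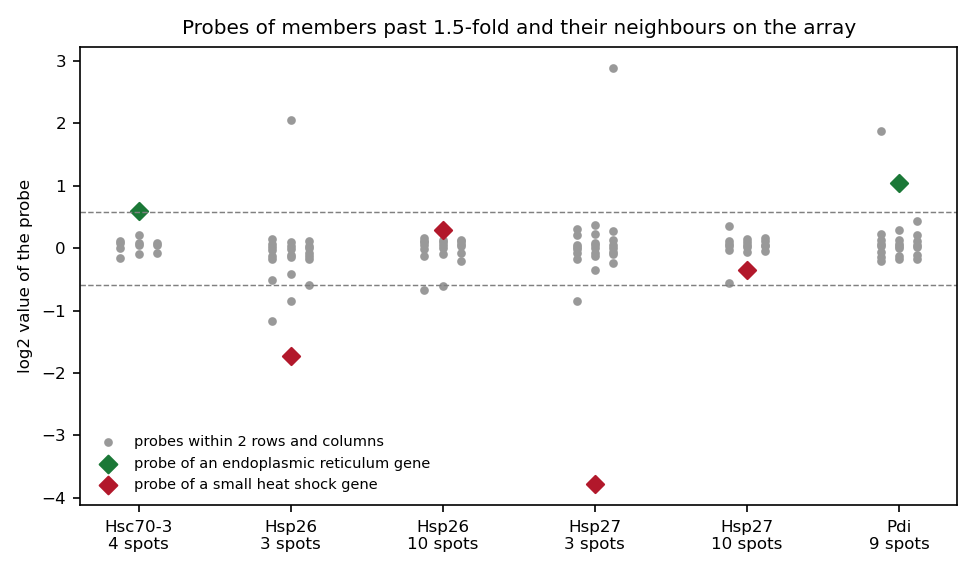
Diamonds are the probes of the 4 chaperone genes beyond 1.5-fold and grey points the measured probes within 2 rows and columns on the array. The vertical axis is the log2 value and dashed lines mark 1.5-fold. The neighbours of Pdi centre on 0.04, with a single point at 1.88.

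The cytosolic Hsp70 system stood on both sides. Hsc70-4, the major constitutive Hsp70 that also strips clathrin from vesicles, stood at -0.38 (1.30-fold) from 10 spots, the lowest of the well-filled chaperone genes. Of the genes with every probe on all 5 arrays, 2.40% had a lower value, and the central 95% of probes with 10 spots began at -0.34. The heat-inducible relative Hsp68 stood at -0.04 and the exchange factor Hsp110 at -0.09, each from 10 spots. Hsc70-1 stood at 0.48 from 5 spots on arrays 1, 3 and 4, and Hsc70-2 at 0.19 from 3 spots on arrays 1 and 3, both relatives with little filling. The median of the 5 genes was -0.04 and none reached 1.5-fold. Hsp70 genes are alike in sequence, a spotted probe can bind transcripts of several of them, and each single value is uncertain for that reason.

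The J domain proteins, which bring clients to Hsp70, had a median of 0.04. DnaJ-1, an Hsp40 known in flies to suppress polyglutamine toxicity, was lowest at -0.23 from 10 spots, and mrj was highest at 0.21 from 8 spots. DnaJ-H, DnaJ-60 and Droj2 stood at -0.07, 0.04 and 0.04. Among 8 other J domain genes the median was -0.08, none reached 1.5-fold, and Rme-8, an endocytic J domain protein, and Tpr2 stood furthest from 0 at -0.24 and -0.22.

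Hsf, which drives the heat shock genes, stood at -0.26 from 10 spots, so it lay outside the SD between probes but well inside 1.5-fold. Hsc70-4, DnaJ-1 and Hsf were the 3 lowest of the 22 chaperone genes with every probe on all 5 arrays. Hsp27 is not among these 22 because of its 3-spot probe, and its 10-spot probe, at -0.34, was lower than DnaJ-1 and Hsf. The Hsp90 genes of the cytosol are not among the measured members, and their cochaperones stood near 0. Stip1, the protein that links Hsp70 to Hsp90 and is also known as Hop, stood at -0.15, p23 at -0.13 and Cdc37, which loads kinases on Hsp90, at 0.08, each from 10 spots.

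Of the 12 cochaperone genes measured, 5 were above 0 and 7 below, with a median of -0.06. Only HIP-R, at 0.84, reached 1.5-fold, and it joined a fully filled probe at -0.04 with a 2-spot probe at 1.72. Fkbp39, a nuclear immunophilin, stood at -0.25, and stv (starvin, the BAG protein of muscle) at 0.11 over probes from -0.41 to 0.30.

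The CCT chaperonin genes lay close together. All 8 subunits of the cytosolic CCT ring were measured, and they ran from -0.15 (CCT2) to 0.08 (CCT6), every one within the SD between probes. CCT7 stood at -0.11, CCT3 at -0.0095, CCT5 at 0.0084, CCT1 at 0.04, CCT4 at 0.07 and CCT8 at 0.08. The largest distance between the log2 values of these subunits was 0.23. Prefoldin, which delivers actin and tubulin to CCT, and the tubulin folding cofactors had a median of 0.0026 over 11 genes, none beyond 1.5-fold. Within that list the 6 prefoldin genes ran from -0.07 (Pfdn1) to 0.14 (Pfdn4) and the tubulin cofactors from -0.30 (Tbcc) to -0.05 (Tbcb).

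The mitochondrial chaperones stood as near to 0. Hsp60A, the general mitochondrial chaperonin, stood at 0.16, and its relatives Hsp60B, Hsp60C and Hsp60D at -0.14, -0.09 and -0.08. Hsp60B is known to be needed in sperm development, and its probe was filled in 6 spots and that of Hsp60C in 7. Hsc70-5, the mitochondrial Hsp70 that pulls in imported proteins, stood at 0.07, and Trap1, the mitochondrial Hsp90, at 0.04, each from 9 spots. The 6 genes had a median of -0.02 and all lay within the SD between probes. The 10 genes of mitochondrial import and proteolysis had a median of 0.01 with none beyond 1.5-fold, with Spg7 highest at 0.25 and ClpX lowest at -0.13.

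**Figure D4:**
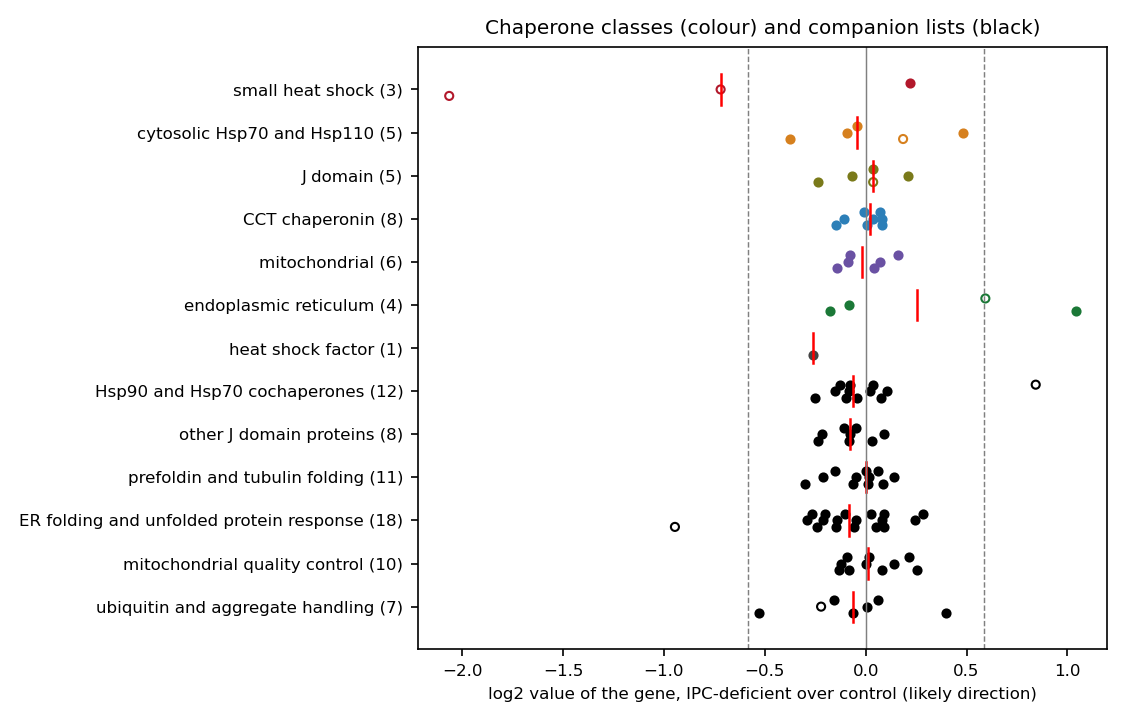
Each point is a gene at its log2 value, with chaperone classes in colour, companion lists in black and red bars at the medians. Open points have a probe with fewer than 5 filled spots, numbers in parentheses count genes and dashed lines mark 1.5-fold. The CCT and mitochondrial classes lie between -0.15 and 0.16, while the small heat shock and endoplasmic reticulum classes spread past 1.5-fold.

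The 7 measured genes of ubiquitin and aggregate handling had a median of -0.06 and none beyond 1.5-fold. The polyubiquitin gene Ubi-p63E, itself induced by heat, stood at -0.53 from 8 spots. TER94, the ATPase that extracts ubiquitinated proteins, stood at -0.16, and its cofactors Npl4 and Ufd1 at 0.40 and -0.06. Ubi-p5E stood at -0.22, between a probe with 2 spots and another with 10 on either side of 0.

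Over all 6 companion lists, 66 genes were measured, 29 above 0 and 37 below, with a median of -0.05. One was positive and 1 negative at 1.5-fold, HIP-R and Der-1, and both rested on a probe with fewer than 5 spots.

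Markers of tissues that may hold these chaperones were read beside them. Of 18 ovary markers, 6 stood above 0 and 12 below, with a median of -0.13 and values from -0.54 (Vm32E) to 0.67 (Cp18), and 1 reached 1.5-fold. The list was split by kind, so its median describes neither part. The 6 above 0 were all chorion genes, and the 12 below were the yolk, vitelline membrane, other eggshell and germ line genes. Of 12 muscle markers, 9 stood above 0 and 3 below, with a median of 0.27 and values from -0.58 (Act88F, with probes at -2.76 and 1.60) to 1.17 (fln), and 1 reached 1.5-fold. Testis markers ranged from -1.59 (nht, 5 spots) to 0.04 (fzo, 5 spots) with a median of -0.13 over 14 genes, and 2 were negative at 1.5-fold. Accessory gland markers ran from -1.32 (Acp95EF, 4 spots) to 0.07 (Acp63F, 3 spots). Their median was -0.44 over 8 genes, and 3 were negative at 1.5-fold. Testis and accessory gland are male tissues that the females used here lack, so these values are not read as a shift of such a tissue. Eye markers ran from 0.35 (trp) to 1.28 (Arr2), their median being 0.54 over 4 genes, and 2 were positive at 1.5-fold. The part of tissue make-up in the values of the chaperone genes was not tested.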

How the data were processed

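The authors deposited a score per feature, a signed fold change, in 1 column for each of 5 two-colour arrays. Each array was scanned 3 times at different gain, and copies and hybridisations were normalised together, per the labels' design text. The sources used here do not name the background correction or the software. Absolute values were never under 1 (0 of 29507 filled features). Of 27376 features filled in several columns, 0 differed between columns by more than 1e-06. The test planned for separate arrays (limma) could therefore not be fitted, and no p-value is given.

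Signed log2 values were taken, and the 2 spot copies were joined into 16224 probes. Symbols of an annotation of 2007 were updated through a RefSeq gene table of Release 6 (12068 probes by Entrez identifier, 113 by accession, 355 as given). Probes with several symbols (3) or none (3685) were left out. A gene's value is the median over its probes, with values equal to 5 decimals counted once. The threshold was 1.5-fold. The members, lists and threshold were chosen with earlier results of these data known. All members were named by class, as were up to 4 genes furthest from 0 in each companion list and the extremes of each marker list. Other companion genes were named for their role after their values were seen. The gene table gave names and gene order only. Gene values planted in a table of the same shape, without noise and equal across the probes of a gene, were recovered exactly. This checks the joining of spots and probes, and it cannot bear on genes whose probes differ. Python 3.11.15, numpy 2.4.6 and pandas 2.3.3 were used.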

Additional observations from a re-analysis of the deposited data

How the results depend on the processing

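With a 2-fold threshold, 1 chaperone gene was left as positive (Pdi) and 1 as negative (Hsp27), where 0.711% and 1.45% of all genes were. With the probe of most filled spots for each gene, 0 were negative and 2 positive, where 2.67% and 2.14% of all genes were. With probes on all 5 arrays or with at least 5 spots, 0 were negative and 1 positive (Pdi), where 0.706% and 1.27% of all genes were negative and 1.98% and 2.06% positive. Under those last settings 27 and 30 chaperone genes were measured. No test was run under any setting. Hsp26 moved to 0.29 with its best filled probe and with probes of at least 5 spots, so that its side changed, and Hsp27 moved to -0.34 under both. The median of the small heat shock class moved to 0.22 under both, and that of the endoplasmic reticulum class to -0.084 with at least 5 spots, where Hsc70-3 has no value. With the sign turned, Pdi stood at -1.04, Hsc70-3 at -0.59, Hsp26 at 0.72 and Hsp27 at 2.06, and the medians were 0.72 for small heat shock genes, -0.25 for the endoplasmic reticulum and 0.26 for Hsf. Centring of columns, equal values counted each time and symbols as annotated left the counts at 2 and 2. Of all genes, 2.20% to 2.24% were positive and 3.11% to 3.13% negative under these settings. Leaving out each array in turn could only remove probes, since the values are combined. It gave 2 positive and 2 negative chaperone genes each time, where 2.20% to 2.24% and 2.59% to 3.09% of all genes were. The chaperone median was then -0.019 to -0.00056. No paired analysis was possible because the table holds 1 combined value per probe. The number of arrays and the filled spots limit the precision.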

Other observations

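In gene order, Hsp26 and Hsp27 lie in a cluster of small heat shock genes, of which Hsp22, Hsp23 and Hsp67Ba were not analysed here. CG4461, the gene directly before Hsp26, stood at 1.07 from 6 spots spread over all 5 arrays, a value picked out after it was seen. The genes after Hsp27, CG4080, eIF4E1 and Cpr67B, stood at 0.17, -0.18 and 0.28. Directly before Pdi, CG12316 stood at -0.36, and Pex3, 2 genes after Pdi, stood at 0.06, both from 10 spots. CG32147, the gene directly after Pdi, had no value here. None of the 3 protein-coding genes on either side overlaps Pdi.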
